A study of Mus musculus with 6 samples.

Results

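The renal medulla is the one mammalian tissue whose extracellular fluid is normally far saltier than blood, and its cells survive by filling themselves with organic osmolytes. The transcription factor NFAT5, also called TonEBP, is switched on by this tonicity and raises genes for sorbitol synthesis, for inositol and betaine uptake, for urea transport and for protective chaperones. Rnf183 encodes a membrane-anchored RING finger ubiquitin ligase whose RNA is found mainly in the renal medulla, and NFAT5 has been reported to drive its transcription in collecting duct cells. These genes are described here in kidneys of aged mice, with the question whether Rnf183 follows the other osmotic genes.

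The set was chosen by gene name and holds 10 genes: Rnf183, Nfat5, Akr1b3, Slc5a3, Slc6a12, Hspa4l, Slc14a2, Slc14a1, Gpbar1 and Gdpd5. It was put together with the differences between the study's groups in view, Rnf183 for being lower in one of them, so the members' differences below are descriptions. Where Rnf183 is said to pass the threshold of the fit over all genes, that restates the choice and supports nothing. Kidney total RNA was sequenced in 6 libraries from mice 24 months old, 3 labelled WT and 3 labelled as a fat-1 knockin (fat-1 here). The fat-1 gene comes from a nematode and encodes an omega-3 desaturase, an enzyme that mammals lack. The promoter or locus of the insertion, the strain, the sex and the part of the kidney taken are not given in the sources used here, nor whether each library is a separate animal. The authors' tables give FPKM, a level corrected for transcript length and for the size of the library, for 27486 protein-coding transcripts. Values were summed over the listed transcripts of each of 13696 genes. Of the 10 members, 9 were listed, and Gpbar1, the membrane receptor for bile acids, was not analysed here. A gene was tested if it reached 1 FPKM in at least 3 libraries, which 6 members and 11698 genes in all did. The members under that level were Slc6a12, Slc14a1 and Slc14a2, each at 1 FPKM or more in 1 library.

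Replicate 3 of fat-1 stood apart from the other libraries in markers of urothelium and of the papilla, the innermost medulla. All 8 markers of the urothelium list were highest there, and their summed level was 114 FPKM against 6.06 to 15.3 FPKM in the other 5 libraries. Psca alone gave 59.6 FPKM of it. These genes do not tell urothelium that covers the papilla from urothelium elsewhere in the kidney. Of 10 markers of medullary thin limbs and papilla that are not members, 8 were highest in that library, with a sum of 256 FPKM against 87.9 to 185 FPKM. Upk2, Upk3a, Krt5 and Sptssb of these lists were listed at 0 in at least 1 other library. The sums for thick ascending limb (1977 against 1071 to 1652 FPKM) and principal cells (323 against 203 to 280 FPKM) were also highest in fat-1 replicate 3. So was the endothelial sum (247 against 88.9 to 218 FPKM). Those for proximal tubule, distal convoluted tubule, intercalated cells and interstitium were not. How many of all genes were highest in that library was not counted. Member differences that rest on fat-1 replicate 3 are given with and without it. WT replicate 1 also stood apart, with 105 genes of at least 5 FPKM there at least 4-fold above every other library, against 23 in fat-1 replicate 3. In bulk RNA, fewer cells of a type and less RNA per cell cannot be told apart. Of 12 housekeeping genes, 0 were listed at 0 in any library. Read depth is unknown, so no counting intervals are given.

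Rnf183 has 2 listed transcripts, which begin at separate start sites on the minus strand of chromosome 4. Rnf183-203 (chr4:62427540-62435252, mm10) has 4 exons and Rnf183-202 (chr4:62427542-62434726) has 3, and they share a coding sequence of 570 bases that lies in their last exon. The stretches before each start are shown because tonicity acts on such genes through NFAT5 and its binding letters. They come from RefSeq on GRCm38.p6, the assembly that mm10 also names, and read 5′ to 3′ on the gene's strand. The Rnf183 stretches end at the base before the listed transcript. That of Slc6a12 ends at the base before a RefSeq start upstream of its listed transcripts, Slc6a12-206 (from 121343399) and Slc6a12-201 (from 121346618). It is therefore not the stretch directly before either of these. The promoter window of Slc6a12 on chromosome 6 is set beside them, since it is the other member in which the same letters were found. Capitals mark TGGAAA, the core that NFAT5 binds, or the same letters read on the opposite strand (TTTCCA).
Rnf183, before Rnf183-203, chr4:62435253-62435500, minus strand: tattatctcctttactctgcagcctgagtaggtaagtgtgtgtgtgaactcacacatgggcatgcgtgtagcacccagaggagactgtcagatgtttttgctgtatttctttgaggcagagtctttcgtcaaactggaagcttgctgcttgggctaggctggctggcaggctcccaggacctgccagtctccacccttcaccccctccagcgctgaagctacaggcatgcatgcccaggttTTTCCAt
Rnf183, before Rnf183-202, chr4:62434727-62434890, minus strand: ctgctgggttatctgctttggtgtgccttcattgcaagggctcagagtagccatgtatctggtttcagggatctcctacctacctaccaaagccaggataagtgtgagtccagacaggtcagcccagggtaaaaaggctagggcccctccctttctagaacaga
Slc6a12, chr6:121342324-121342573, plus strand: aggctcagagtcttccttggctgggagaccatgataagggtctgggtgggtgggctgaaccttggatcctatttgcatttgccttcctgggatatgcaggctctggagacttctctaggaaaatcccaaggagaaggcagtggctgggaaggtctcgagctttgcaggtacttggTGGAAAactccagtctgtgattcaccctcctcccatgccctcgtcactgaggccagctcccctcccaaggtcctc

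The letters TGGAAA stood at positions -9 to -4 from the RefSeq start of the longer Rnf183 form, on the opposite strand. At positions -14 to -4 they were part of a match to the tonicity-responsive enhancer consensus, a longer pattern that begins with TGGAAA. In Slc6a12 a match to the same consensus stood at positions -75 to -65 on the gene's own strand. Promoter windows of 300 bases, both strands searched, were matched by symbol for 6 of the 10 members, namely Rnf183, Nfat5, Slc5a3, Slc6a12, Hspa4l and Gpbar1. Of these 6 genes, 2 held TGGAAA and 2 held the consensus in at least 1 window, against 23.9% and 5.74% of all 27025 genes. Rnf183 had 2 windows and Slc6a12 had 5, with a match in 1 window each, and genes with more windows have more chances of a match. Over the 32851 windows of all genes, 21.4% held TGGAAA and 4.96% held the consensus. A match of letters is a description and no evidence of binding.

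Rnf183 was lower in every fat-1 library than in every WT library. It measured 16.7, 14.8 and 16.3 FPKM in WT replicates 1 to 3, and 6.17, 6.11 and 5.94 FPKM in fat-1 replicates 1 to 3. The groups lay far apart beside a narrow spread within each. Replicate 3 of fat-1, with its high urothelial and papillary markers, was the lowest of the 6 by a small margin. The WT mean was 15.9 ± 1.02 FPKM and that of fat-1 was 6.08 ± 0.121 FPKM (SD, n = 3 each), so that the fat-1 mean was 38.1% of the WT mean. The log2 difference was taken as fat-1 minus WT after adding 1 FPKM to each value, and it was -1.26 ± 0.11 (SE; 95% interval -1.52 to -0.99). This scale, written log2(FPKM + 1), understates the change of low genes.

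With all 6 libraries Rnf183 was the 1 member of the 6 tested that passed an adjusted p of 0.05 in limma, the linear model fitted over all tested genes. It passed as lower, as did 0.0598% of all tested genes (0.18% in either direction), and nothing is read from that count, because Rnf183 was chosen on this contrast. The call was lost when any library other than WT replicate 1 was left out, and the count of members called was then 0. The log2 difference itself stayed between -1.31 and -1.22 over these 6 fits with 1 library left out. Without fat-1 replicate 3 it was -1.24 ± 0.13 (SE).

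**Figure D1:**
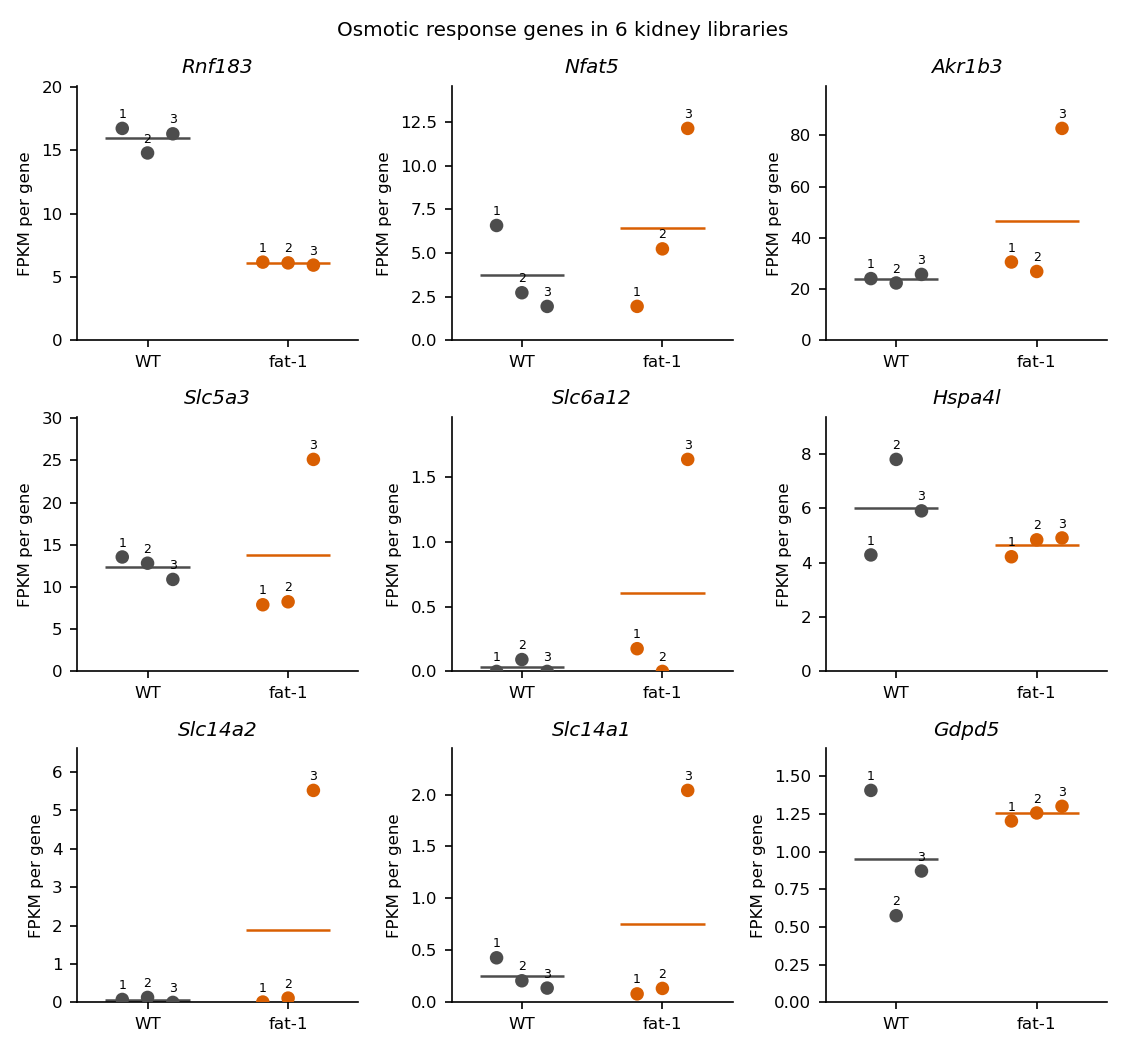
FPKM per gene of the 9 listed members in each library (points, numbered by replicate), with WT in grey, fat-1 in orange and group means as lines; each panel has its own axis from 0. Rnf183 lies at 14.8 to 16.7 FPKM in WT and 5.94 to 6.17 FPKM in fat-1. For Akr1b3, Slc5a3, Nfat5 and the low-level carriers, fat-1 replicate 3 is the highest library, and Nfat5 also varies among the others.

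Rnf183-202, the form from the inner start site, carried most of the signal. It measured 12.7, 11.3 and 10.9 FPKM in WT replicates 1 to 3 and 5.47, 4.42 and 4.65 FPKM in fat-1 replicates 1 to 3. Rnf183-203, from the outer start site, measured 4.01, 3.51 and 5.35 FPKM in WT and 0.703, 1.69 and 1.29 FPKM in fat-1. For each transcript the groups did not overlap. The transcripts share most of their sequence, and Rnf183 was chosen for its lower level, so this is no further support. It does not show which start site the difference concerns. Among all tested transcripts, 14% had groups that did not overlap, 6.6% with fat-1 lower and 7.4% with fat-1 higher.

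The log2 difference was -1.11 ± 0.14 for Rnf183-202 and -1.26 ± 0.26 for Rnf183-203 (SE, log2(FPKM + 1) scale, fit over 17119 transcripts). Neither passed an adjusted p of 0.05 in that limma fit, where 10 transcripts did (0.0584%; 0.0467% as higher and 0.0117% as lower) and 8.13% had an unadjusted p under 0.05. The share of Rnf183-202 in the gene's FPKM was 76.0%, 76.3% and 67.2% in WT and 88.6%, 72.3% and 78.4% in fat-1, and these ranges overlap. The transcripts differ in their 5′ exons and by 2 bases at the 3′ end, so their separate values depend on how reads over the shared exons were divided.

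**Figure D2:**
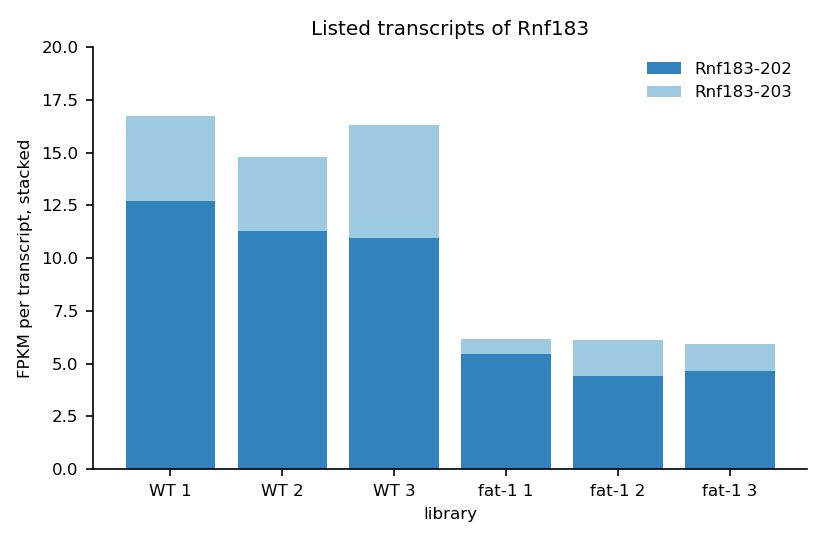
FPKM of the 2 listed Rnf183 transcripts in each of the 6 libraries, stacked from 0. Rnf183-202 is the larger part in every library, and each transcript is lower in the 3 fat-1 libraries than in the 3 WT libraries.

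Nfat5, the transcription factor of the tonicity response (chr8:107293470-107379516), did not separate the groups. It measured 6.58, 2.73 and 1.95 FPKM in WT replicates 1 to 3 and 1.95, 5.24 and 12.1 FPKM in fat-1 replicates 1 to 3. The highest value was in fat-1 replicate 3 and the next in WT replicate 1. The log2 difference was 0.51 ± 0.59 (SE; 95% interval -0.90 to 1.93), and it turned to -0.03 ± 0.52 without fat-1 replicate 3. Without WT replicate 1 it was 0.91 ± 0.60 (SE).

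Of the 5 listed Nfat5 transcripts, Nfat5-202 made most of the high value, at 10.1 FPKM in fat-1 replicate 3 against 0.566 to 2.61 FPKM elsewhere. Nfat5-214 measured 3.22 FPKM in WT replicate 1 and was listed at 0 in WT replicates 2 and 3 and fat-1 replicate 1. Nfat5-201 lay between 0.439 and 0.785 FPKM in all 6 libraries, with every fat-1 value above every WT value. The shares of the transcripts in the gene's sum thus differed widely between libraries, and the part that the division of reads between transcripts has in this was not tested.

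Akr1b3, aldose reductase, which makes the osmolyte sorbitol from glucose (chr6:34303934-34317478), was the most abundant member. It measured 24.1, 22.4 and 25.8 FPKM in WT and 30.6, 26.9 and 82.8 FPKM in fat-1. Every fat-1 library lay above every WT library, by a small margin in replicates 1 and 2 and by a wide one in replicate 3. Among all tested genes 15.2% had groups that did not overlap, 8.33% with fat-1 higher and 6.86% with fat-1 lower, as in Rnf183. The log2 difference was 0.74 ± 0.40 (SE; 95% interval -0.22 to 1.70) and was 0.24 ± 0.13 without fat-1 replicate 3. An antisense gene, Gm14546, spans this locus, and strand-aware counting is not stated in the sources used here.

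Slc5a3, the sodium-coupled inositol carrier (chr16:92058322-92087473), measured 13.6, 12.8 and 10.9 FPKM in WT and 7.90, 8.25 and 25.1 FPKM in fat-1. Replicates 1 and 2 of fat-1 lay below all WT libraries and replicate 3 lay above them. The log2 difference was -0.05 ± 0.41 (SE; 95% interval -1.04 to 0.93), and -0.56 ± 0.15 without fat-1 replicate 3. Slc5a3 lies inside Mrps6, a mitochondrial ribosomal protein gene on the same strand, whose values ran from 56.6 FPKM in fat-1 replicate 2 to 114 FPKM in fat-1 replicate 3. Gm49711, another protein-coding gene of the same strand, also spans Slc5a3 and was not analysed here. Reads over the shared stretches cannot be assigned to 1 of these genes with certainty.

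The remaining carriers were near the floor of the tables outside 1 library. Slc6a12, the betaine carrier (chr6:121343399-121365775), was listed at 0, 0.0913 and 0 FPKM in WT and 0.175, 0 and 1.63 FPKM in fat-1. Slc14a2, the urea transporter of thin limbs and the inner medullary collecting duct (chr18:78146940-78209094), was at 0.0771, 0.130 and 0 FPKM in WT and 0.00964, 0.112 and 5.52 FPKM in fat-1. Slc14a1, the urea transporter of vasa recta and red cells (chr18:78100091-78123426), was at 0.429, 0.208 and 0.138 FPKM in WT and 0.0820, 0.135 and 2.04 FPKM in fat-1.

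For these 3 genes fat-1 replicate 3 was the 1 library above 1 FPKM, and the ranges of the groups overlap. The urea transporters are defining genes of the inner medulla, and in 5 of the 6 libraries neither exceeded 0.429 FPKM. The name medullary therefore stands for where these genes are known to act, and not for a high level of those markers in these libraries.

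The other tested members showed no such step in fat-1 replicate 3. Hspa4l, an osmotically induced chaperone of the heat shock protein family (chr3:40745382-40796103), measured 4.28, 7.80 and 5.91 FPKM in WT and 4.22, 4.84 and 4.91 FPKM in fat-1. Gdpd5, a phosphodiesterase that breaks down the osmolyte glycerophosphocholine (chr7:99381414-99461877), measured 1.41, 0.576 and 0.872 FPKM in WT and 1.2, 1.26 and 1.30 FPKM in fat-1. Both genes varied more among the WT libraries than among the fat-1 libraries, and their groups overlapped. The log2 difference was -0.28 ± 0.21 for Hspa4l (SE; 95% interval -0.77 to 0.22) and 0.23 ± 0.21 for Gdpd5 (SE; 95% interval -0.26 to 0.72). With 1 library left out, Hspa4l lay between -0.47 (without WT replicate 1) and -0.10 (without WT replicate 2), and Gdpd5 between 0.09 (without WT replicate 2) and 0.39 (without WT replicate 1).

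**Figure D3:**
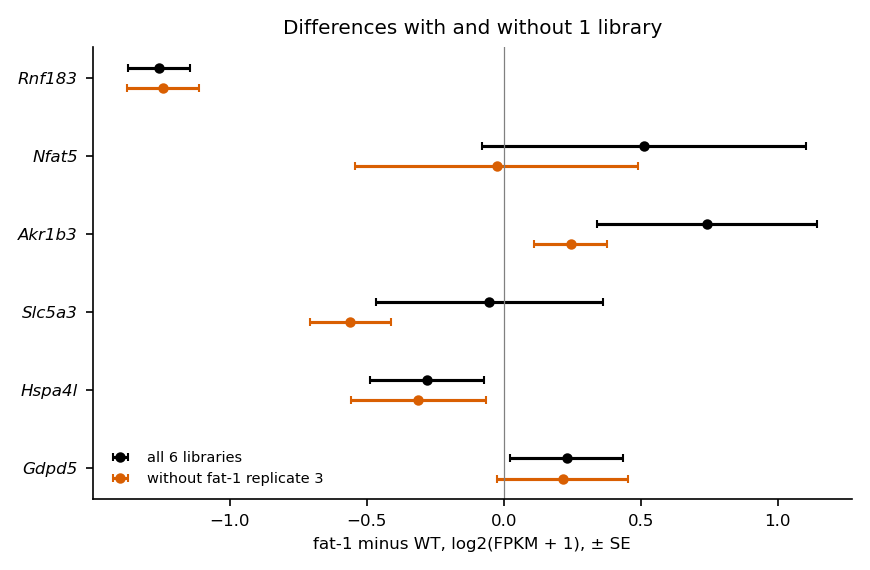
Difference fat-1 minus WT in log2(FPKM + 1) for the 6 tested members, with all 6 libraries in black and without fat-1 replicate 3 in orange; bars are SE. Rnf183 lies at -1.26 and -1.24 in these fits, while Nfat5, Akr1b3 and Slc5a3 shift to lower values without that library.

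Levels can be compared between genes because FPKM is per length. In WT the order of the means was Akr1b3 (24.1 FPKM), Rnf183 (15.9), Slc5a3 (12.4), Hspa4l (6.0), Nfat5 (3.75), Gdpd5 (0.951), Slc14a1 (0.258), Slc14a2 (0.0691) and Slc6a12 (0.0304). The ranges of Hspa4l and Nfat5 overlapped, as did those of Slc14a2 and Slc6a12, so these neighbours in the order do not differ beyond their spread. In fat-1 Rnf183 (6.08 FPKM) came after Akr1b3 (46.8), Slc5a3 (13.8) and Nfat5 (6.45). Its range there lay inside that of Nfat5 and below that of Slc5a3.

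Rnf183 did not follow Nfat5 and Akr1b3 across the libraries, and it parted from Slc5a3 mainly in fat-1 replicate 3. In fat-1 replicates 1 and 2 Slc5a3 lay below every WT library, as Rnf183 did. Without fat-1 replicate 3 the log2 difference was -0.56 ± 0.15 (SE) for Slc5a3 and -1.24 ± 0.13 for Rnf183. In the same fit Nfat5 was at -0.03 ± 0.52 and Akr1b3 at 0.24 ± 0.13. For each gene the mean over the 6 libraries was subtracted from its log2(FPKM + 1) values. In fat-1 replicate 3 the result was 1.33 for Nfat5, 1.37 for Akr1b3 and 0.99 for Slc5a3, and -0.66 for Rnf183. Relative to the mean of fat-1 replicates 1 and 2, replicate 3 was higher by 1.61 in Nfat5, 1.50 in Akr1b3 and 1.53 in Slc5a3, and differed by -0.04 in Rnf183 (log2). A step of 1 or more was found in 2.38% of all tested genes. The step was also small in Hspa4l (0.10) and Gdpd5 (0.05), so its absence was not particular to Rnf183. The range within fat-1 was 0.0478 log2 units for Rnf183, against 0.0623 for Gdpd5, 0.18 for Hspa4l, 2.16 for Nfat5 and a median of 0.37 over all tested genes.

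Set against the median of the 5 other tested members in the same library, Rnf183 was at 0.55, 0.93 and 0.81 in WT and at -0.36, -0.53 and -1.65 in fat-1 (log2). This measure holds the values on which Rnf183 was chosen, so its separation of the groups is no further support. It also pools genes of different roles, among them Gdpd5, which breaks down an osmolyte, so the pooled members need not move alike. The mean difference was -1.61, with an SD of 0.20 in WT and 0.70 in fat-1 (n = 3 each), and -1.12 without fat-1 replicate 3. No correlation between Rnf183 and another member is given, because its values fall into 2 clusters of 3 libraries.

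**Figure D4:**
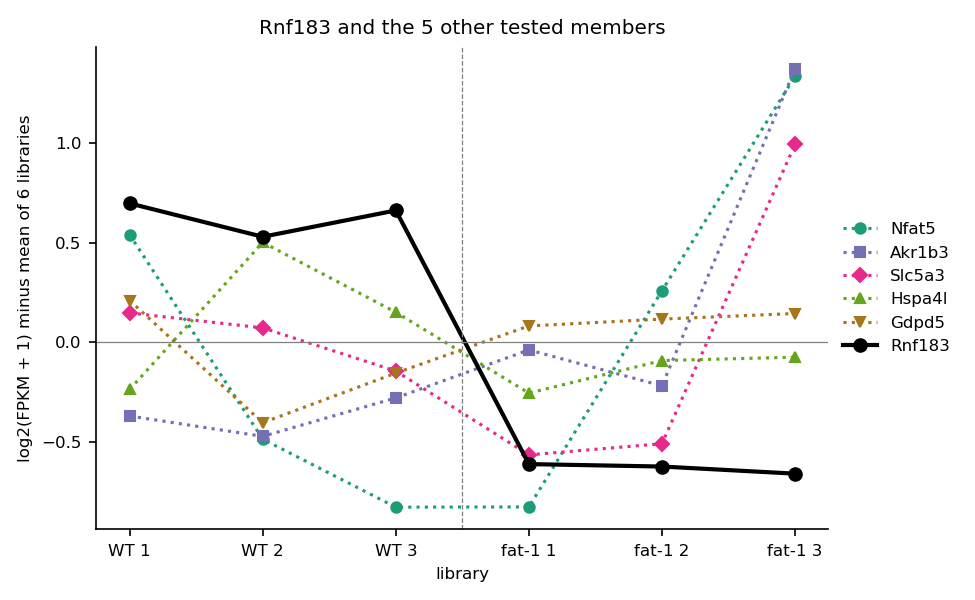
log2(FPKM + 1) minus the mean of the 6 libraries, for Rnf183 (black) and the 5 other tested members (coloured, dotted); lines link points of 1 gene, and the libraries have no order within a group. Rnf183 lies above 0 in the 3 WT libraries and below 0 in the 3 fat-1 libraries, whereas Nfat5, Akr1b3 and Slc5a3 are highest in fat-1 replicate 3.

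The likeness of profiles was measured as the root mean square distance between such centred values over the 6 libraries, where 0 is an identical profile. Among 7858 other genes with a mean of at least 5 FPKM, the 5 nearest to Rnf183 were Adgrg4 (0.0755), Tmem254b (0.15), Tmem254a (0.16), Itgb6 (0.17) and Defb1 (0.19), and the median distance was 0.66. Adgrg4 is an adhesion receptor gene, and its fat-1 mean was 33.4% of its WT mean. Itgb6, an integrin subunit, was at 44.1% and Defb1, an epithelial defensin, at 49.6%. The Tmem254 genes are near-identical copies, so their separate values are uncertain. Among the tested members, Hspa4l was the nearest at 0.56, with 1229 of these genes nearer. Gdpd5 (0.76), Slc5a3 (0.80), Akr1b3 (1.13) and Nfat5 (1.16) were farther than the median gene. These distances hold the values on which Rnf183 was chosen, so its nearest genes are lower in fat-1 by construction and their percentages are no further support. A distance also grows with the size of the differences of Rnf183 itself, so it does not measure the shape of a profile alone. All distances include fat-1 replicate 3, and none was taken without it.

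Rnf183 was then set beside markers of the cells known to express it and of their neighbours. Principal cells of the collecting duct, the vasopressin-responsive cells, had a summed level over 12 markers of 242 to 280 FPKM in WT and of 224, 203 and 323 FPKM in fat-1 replicates 1 to 3. Of the 12, 8 had a negative difference and 0 passed (median log2 difference -0.19; all tested genes 0.01), and 2 had an unadjusted p under 0.05. With 1 library left out the median ran from -0.32 (without fat-1 replicate 3) to -0.0086 (without fat-1 replicate 2), and it was -0.08 without fat-1 replicate 1. Aqp2, the vasopressin-regulated water channel, a marker singled out after its values were seen, measured 59.8, 56.7 and 50.5 FPKM in WT and 24.5, 32.0 and 88.8 FPKM in fat-1. Rnf183, at 6.17, 6.11 and 5.94 FPKM in fat-1 replicates 1 to 3, had no such rise in fat-1 replicate 3. The epithelial sodium channel subunits Scnn1b and Scnn1g had the smallest p of these markers and, like Rnf183, did not lie above WT in that library. Scnn1b measured 22.4, 19.8 and 18.6 FPKM in WT and 16.2, 16.2 and 17.2 FPKM in fat-1 (log2 difference -0.27 ± 0.11, SE; adjusted p = 0.489 in limma). Aqp3, the basolateral water channel of the same cells, ran from 39.8 to 41.5 FPKM in WT and from 42.7 to 48.4 FPKM in fat-1 (log2 difference 0.14 ± 0.10, SE; adjusted p = 0.785 in limma).

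As a share of the summed principal cell markers, Rnf183 was 5.67% to 6.73% in WT and 1.84% to 3.02% in fat-1. Such shares hold the values on which Rnf183 was chosen, so their separation of the groups is no further support. The groups did not overlap when the level of Rnf183 was divided by the sum of any of the 9 marker lists, members left out. The gap between the groups varied. It was narrow for urothelium (109% to 138% in WT against 5.22% to 101% in fat-1), for thin limbs and papilla (8.26% to 9.02% against 2.32% to 6.95%) and for distal convoluted tubule (3.26% to 4.23% against 2.02% to 2.87%). It was wider for thick ascending limb (0.895% to 1.2% against 0.301% to 0.571%) and proximal tubule (0.471% to 0.718% against 0.203% to 0.255%). The marker sums of other cell types also differed between the groups. In fat-1 replicates 1 and 2 the sums for urothelium (8.34 and 6.06 FPKM) and for thin limbs and papilla (142 and 87.9 FPKM) lay below every WT library (10.7 to 15.3 and 179 to 185 FPKM), as Rnf183 did. In fat-1 replicate 3 both sums lay above every WT library, and Rnf183 did not. Krt7 alone made 5.65 and 3.98 FPKM of the urothelium sums of fat-1 replicates 1 and 2, against 6.92 to 8.04 FPKM in WT. Intercalated cell markers summed to 249 to 261 FPKM in WT and 169 to 214 FPKM in fat-1, with 9 of 10 differences negative and 0 passing (5 at an unadjusted p under 0.05). Atp6v1g3 had the smallest p of these, with a log2 difference of -0.73 ± 0.13 (SE; adjusted p = 0.102 in limma). Distal convoluted tubule markers summed to 349 to 513 and 207 to 303 FPKM, with 8 of 8 negative and 0 passing (4 at an unadjusted p under 0.05). Calb1 had the smallest p there, with a log2 difference of -1.74 ± 0.27 (SE; adjusted p = 0.0803 in limma). Its groups did not overlap, and its fat-1 mean was 29.9% of its WT mean. Endothelial markers summed to 88.9 to 110 and 179 to 247 FPKM, with 9 of 9 positive and Plvap, an endothelial vesicle protein, passing (limma, adjusted p = 0.0496). Plvap passed in no fit with 1 library left out. Differences were negative for 9 of 10 thick ascending limb markers, 7 of 12 proximal tubule markers and 5 of 8 interstitial markers, with 0 passing in each list (2, 4 and 3 at an unadjusted p under 0.05). Thick ascending limb markers summed to 1360 to 1652 FPKM in WT and to 1462, 1071 and 1977 FPKM in fat-1. Their median log2 difference was -0.14. With 1 library left out it ran from -0.37 (without fat-1 replicate 3) to 0.04 (without fat-1 replicate 2). No marker of these 6 lists or of principal cells was listed at 0, and their part in the Rnf183 difference was not tested.

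**Figure D5:**
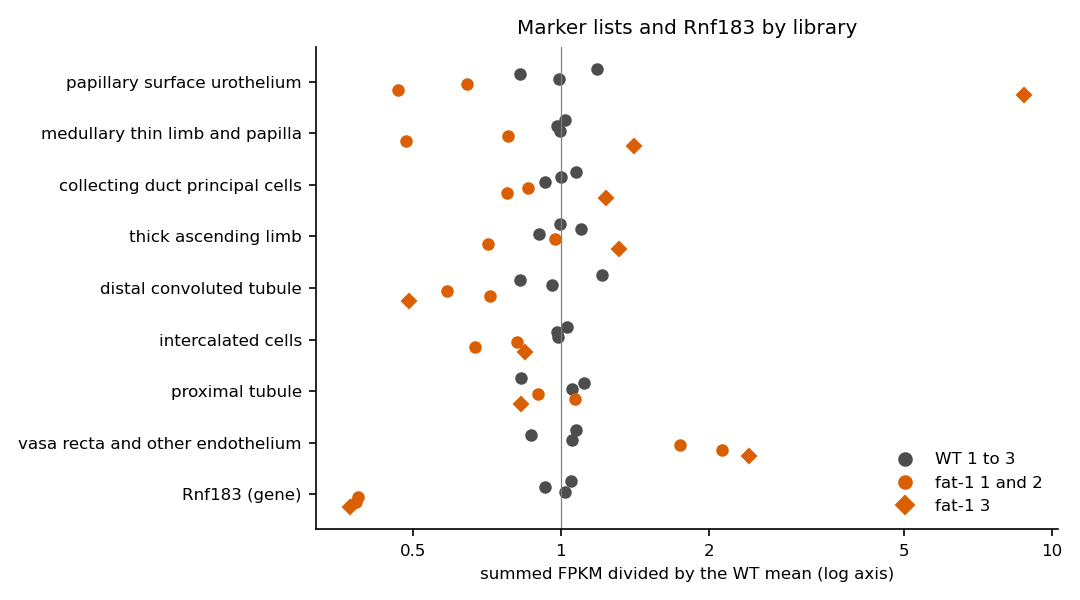
Summed FPKM of 8 marker lists without the members and FPKM of Rnf183 in each library, divided by the WT mean, on a log axis; WT in grey, fat-1 in orange, and fat-1 replicate 3 as diamonds. The urothelium list reaches 114 FPKM in fat-1 replicate 3 against 6.06 to 15.3 FPKM elsewhere, and Rnf183 lies at 5.94 to 6.17 FPKM in all 3 fat-1 libraries.

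The wider osmotic pathway was read from 9 lists, whose 82 tested genes outside the members had a median log2 difference of 0.00, with 41 positive and 41 negative. The counts given for single lists include the members they hold. In limma 0 of the 82 passed an adjusted p of 0.05, and 8 had an unadjusted p under 0.05, as had 9.97% of all tested genes. Osmolyte synthesis and breakdown genes (16 tested, Akr1b3 and Gdpd5 among them) had a median of 0.12 (0.06 to 0.16 with 1 library left out) and 0 under an unadjusted p of 0.05. Bhmt, which uses betaine as a methyl donor, had the smallest p in that list, at 3.26, 2.20 and 2.63 FPKM in WT and 5.98, 3.50 and 3.44 FPKM in fat-1. Its groups did not overlap, and it missed the threshold (limma, adjusted p = 0.564).

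Among osmolyte carriers and volume-regulated channels, 7 of 12 differences were positive and 0 passed. Slc44a2, a choline transporter-like gene, had a WT mean of 8.26 ± 0.699 FPKM and a fat-1 mean of 11.8 ± 2.81 FPKM (SD, n = 3; adjusted p = 0.460 in limma). The means of Lrrc8b, a subunit of the volume-regulated anion channel, were 6.90 ± 0.819 and 9.02 ± 0.885 FPKM (limma, adjusted p = 0.479). Their groups did not overlap. Slc5a11, another sodium-coupled inositol carrier, measured 23.6, 25.6 and 25.1 FPKM in WT and 21.3, 22.9 and 18.1 FPKM in fat-1, lowest in replicate 3, where Slc5a3 was highest (log2 difference -0.25 ± 0.12, SE; adjusted p = 0.605 in limma). Slc6a6, the taurine carrier and an NFAT5 target, singled out after its values were seen, was at 55.0 to 90.0 FPKM in WT and at 61.9, 69.4 and 103 FPKM in fat-1, highest again in replicate 3.

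Osmotic stress chaperones and survival genes had a median of -0.10, and 3 of 12 were positive with 0 passing. With 1 library left out the median ran from -0.32 (without fat-1 replicate 3) to 0.0095 (without fat-1 replicate 2), and it was -0.04 without WT replicate 2. Sgk1, a kinase induced by tonicity and by aldosterone, measured 31.5, 21.8 and 23.6 FPKM in WT and 36.6, 37.3 and 64.4 FPKM in fat-1 (log2 difference 0.79 ± 0.25, SE; adjusted p = 0.335 in limma). Cryab, a small heat shock protein abundant in the inner medulla, was at 46.0, 77.0 and 79.1 FPKM in WT and at 40.9, 16.6 and 96.1 FPKM in fat-1. Sgk1 did not overlap between the groups, and Cryab overlapped widely. Ranbp3l, a Ran-binding protein gene, was at 10.4 to 12.8 FPKM in 3 WT libraries and at 11.7, 13.02 and 24.3 FPKM in fat-1, so that replicate 3 again held the highest value.

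NFAT5 activators and partners (16 tested) had a median of 0.13, with 11 positive, 0 passing and 0 at an unadjusted p under 0.05. Parp1, which binds NFAT5, had the smallest p there, with a log2 difference of 0.24 ± 0.14 (SE; adjusted p = 0.700 in limma). With 1 library left out the median ran from -0.03 (without fat-1 replicate 3) to 0.22 (without fat-1 replicate 1), and it was -0.0087 without WT replicate 3. In the WNK pathway, which senses cell volume and chloride, 5 of 6 differences were negative and 0 passed (median -0.29, and -0.35 to -0.17 with 1 library left out). Klhl3, the adaptor that targets WNK kinases for degradation, measured 16.1, 12.4 and 12.2 FPKM in WT and 9.34, 10.8 and 9.13 FPKM in fat-1, with no overlap (limma, adjusted p = 0.376).

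Of the other urea genes 3 were tested and 0 passed, and Aqp7, an aquaglyceroporin, differed by -0.47 ± 0.20 (SE; adjusted p = 0.502 in limma). Water channel and vasopressin genes had a median of -0.06 over 11 genes, with 0 passing and 0 at an unadjusted p under 0.05. The median was -0.13 without fat-1 replicate 3 and turned positive without fat-1 replicate 2 (0.11) and without WT replicate 2 (0.06). Adcy6, the adenylate cyclase that serves the vasopressin receptor, measured 8.49, 9.28 and 3.23 FPKM in WT and 13.2, 9.44 and 16.1 FPKM in fat-1, with no overlap (limma, adjusted p = 0.509).

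Gpbar1 itself was not analysed here, but other genes of bile acid sensing and transport were. Of 5 tested, 0 passed and 3 had an unadjusted p under 0.05. Nr1h4, the nuclear bile acid receptor FXR, measured 53.4, 40.1 and 42.5 FPKM in WT and 65.2, 72.3 and 59.7 FPKM in fat-1 (log2 difference 0.53 ± 0.15, SE; adjusted p = 0.257 in limma). Slc10a2, the apical bile acid carrier, measured 23.5, 31.9 and 26.6 FPKM in WT and 16.6, 13.7 and 20.8 FPKM in fat-1 (log2 difference -0.66 ± 0.18, SE; adjusted p = 0.259 in limma). Neither gene overlapped between the groups, and they differed in opposite directions. Slc51b, a subunit of the basolateral bile acid carrier, measured 40.4, 55.0 and 54.9 FPKM in WT and 75.4, 63.9 and 61.4 FPKM in fat-1 (log2 difference 0.42 ± 0.16, SE; adjusted p = 0.452 in limma).

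Among the RING family relatives and reported partners of Rnf183, 7 were tested, 0 passed and 1 had an unadjusted p under 0.05. That gene was Rnf186, a related membrane-anchored ligase, at 23.3, 15.6 and 20.6 FPKM in WT and 13.6, 16.5 and 12.2 FPKM in fat-1. Its log2 difference was -0.46 ± 0.18 (SE; adjusted p = 0.463 in limma), and its groups overlapped. Rnf152, another relative, differed by 0.05 ± 0.17 (SE; adjusted p = 0.976 in limma).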

How the data were processed

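Kidney RNA-seq of 3 WT and 3 fat-1 samples was used. The authors' deposited tables give FPKM per transcript, per the file headers. The authors used mm10 and, per the submitters' processing notes, DESeq2 1.20.0, featureCounts 1.5.0-p3 and HISAT2 2.0.5; the sources used here do not name the tool behind the FPKM. Each listed transcript reaches 0.5 FPKM in some library, so sums per gene omit lower transcripts. Symbols turned into dates (64 lines) were restored.

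limma 3.58.1 in R 4.3.3 was fitted to log2(FPKM + 1) with an intensity trend, robust variances, no covariates and no rescaling, for genes with at least 1 FPKM in 3 libraries. Adjusted p-values are Benjamini-Hochberg over all tested genes, threshold 0.05, two-sided. It was tested on simulated data with independent noise per gene and no outlying library, so that test does not cover such libraries. Since separate animals are not stated, p-values measure only the spread between samples, which may be technical.

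The members, the 18 gene lists and the tests were chosen with earlier results of these data known. Named genes are the members, the 5 nearest profiles and up to 4 genes of smallest p per list; others are marked. Alternatives covered pseudocount, filters, scaling, robust estimation and left-out libraries. Python 3.11.15 and pandas 2.3.3 made the joins, matplotlib 3.10.9 the plots.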

Additional observations from a re-analysis of the deposited data

How the results depend on the processing

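The log2 difference of Rnf183 kept its sign in all 15 alternatives, between -1.37 and -1.11. Its call was lost in limma without WT replicate 2, WT replicate 3 or any 1 fat-1 library (over the 6 fits with 1 library left out, -1.31 to -1.22). It was also lost when WT replicate 1 was left out together with fat-1 replicate 3 (-1.21, adjusted p = 0.0908) and with the most expressed transcript alone (-1.11, adjusted p = 0.109). Over all its alternatives the adjusted p lay between 0.0269 and 0.197. The count of members called was 1 or 0 over the fits with 1 library left out, and 0 without that pair. The count of genes called was 21; it was 4 with no filter, 41 with a mean of at least 5 FPKM, 10 with median-of-ratios factors, 11 with upper quartile factors, 0 without that pair, and 0 to 25 with 1 library left out. Fewer samples enter the fits with libraries left out. With 1 library left out, Slc5a3 lay between -0.56 and 0.22 and turned positive in the absence of WT replicate 1 (0.0092), of fat-1 replicate 1 (0.22) and of fat-1 replicate 2 (0.19). Nfat5 lay between -0.03 and 1.05, and turned negative (-0.0257) without fat-1 replicate 3. Neither was called in any fit, and the cause was not tested. Of the genes in the pathway lists, 0 were called in any of 14 alternatives, and Rnf183 minus the median of the other members lay between -1.84 and -1.11 over 11. No scaling moved the median of all genes by over 0.1. No paired analysis was possible because the fat-1 labels carry no replicate numbers shared with WT.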

Other observations

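Over all listed genes, 23 with at least 5 FPKM in fat-1 replicate 3 were there at least 4-fold above every other library. By the same rule there were 105 in WT replicate 1, 30 in WT replicate 3 and 9 in WT replicate 2. There were 3 in fat-1 replicate 2 and 2 in fat-1 replicate 1. The genes named here were chosen after their values were seen. Slc14a2 was the 1 member among the 23. The highest levels among them were in genes outside the urothelium list, Ugt1a5 (68.4 against at most 6.53 FPKM elsewhere) and Ugt1a6b (63.6 against at most 9.26 FPKM). Nccrp1 (48.1 against at most 10.1 FPKM) and Ugt1a9 (41.1 against at most 8.21 FPKM) were also outside it. Others were Psca, a surface protein of urothelium, at 59.6 FPKM against at most 1.99 FPKM elsewhere, and the uroplakin genes Upk3a (9.86 against at most 0.146 FPKM), Upk1a (6.88 against at most 0.985 FPKM) and Upk1b (6.69 against at most 0.117 FPKM). The keratin genes of stratified epithelium Krt15 and Krt5 measured 11.7 and 5.06 FPKM there. Igfbp2, which binds insulin-like growth factors, measured 31.1 FPKM against at most 1.32 FPKM elsewhere.

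Sptssb, which encodes a subunit of serine palmitoyltransferase, was listed at 0 in 4 libraries, at 0.0898 FPKM in WT replicate 2 and at 8.95 FPKM in fat-1 replicate 3. Rnf183, at 5.94 FPKM in this library and 6.17 and 6.11 FPKM in the other 2 fat-1 libraries, had no such step.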
